A study of Mus musculus with 6 samples.

Results

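The transcripts followed here are those of 9 ion channel and channel-partner genes by which sensory neurons respond to touch, acid and ATP: Piezo1 and Piezo2, the stomatin family gene Stoml3, the acid-sensing channel genes Asic1, Asic2 and Asic3, and the ATP receptor genes P2rx2, P2rx3 and P2rx4. They were taken by gene symbol from a table of 17971 genes, and all 9 were found. RNA-seq was made from dorsal root ganglia, the clusters of sensory neurons and glia beside the spinal cord, of male mouse embryos at E13.5. The 3 cKO libraries came from Wnt1-cre+/-;Ybx1fl/fl embryos, and the 3 Ctrl libraries from littermates of genotype Ybx1fl/fl without Cre. Both groups carry floxed Ybx1, which encodes an mRNA-binding cold-shock domain protein, and the study asked which mRNAs depend on it. Wnt1-driven Cre is active in neural crest, the source of the neurons and glia of these ganglia. Cells of other origin, such as blood and endothelial cells, should keep Ybx1, which was not measured here by cell type. No group had Cre with intact Ybx1, and an effect of Cre itself therefore cannot be told apart from the loss of Ybx1. The sources used here do not say whether embryos were pooled.

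Piezo channels are very large proteins that form trimers and open when the membrane is stretched. Piezo2 is the main transducer of light touch and limb position in sensory neurons, while Piezo1 is best known from blood vessels and red blood cells. Stoml3 is a membrane protein that makes Piezo channels more sensitive in mouse touch neurons. ASIC channels are trimers that open in acid and mix subunits, and P2X channels are trimers gated by extracellular ATP, among which P2rx3 alone or with P2rx2 gives the ATP response of pain-sensing neurons. P2rx4 is also well known from macrophages and microglia.

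In cKO ganglia, Piezo2, Asic1 and P2rx2 fell when same-numbered cKO and Ctrl libraries were compared as pairs, to 0.80, 0.84 and 0.63 of the Ctrl level. In the fit without pairs, which was set as the main test, none of them passed (edgeR adjusted p 0.447, 0.182 and 0.144). Of the paired calls, that of Piezo2 held whichever pair was left out, while those of Asic1 and P2rx2 did not. P2rx3, the most abundant of the 9 transcripts, stood at nearly the same level in both groups. P2rx4 was the one member whose cKO values all lay above its Ctrl values, by 1.20-fold, and it did not pass the test in either fit. Stoml3 was barely detected in any library.

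Each library held 16464264 to 17446385 estimated counts, and 14338 genes had enough counts to be tested. Ybx1 itself had 137, 122 and 108 normalised CPM (the library-scaled count unit of edgeR) in cKO, against 927, 809 and 817 CPM in Ctrl, so every library went with its label. The cKO and Ctrl libraries numbered 1 stood apart: within cKO, replicate 1 differed from replicates 2 and 3 by 15.2 and 16.4 times the variance that counting alone gives, and those 2 differed from each other by 3.47 times. In Ctrl the corresponding values were 9.29, 8.82 and 3.29. These are means over genes, in which a few genes of high count can weigh heavily. The 10 erythroid genes summed to 10170 CPM in cKO replicate 1, against 2460 and 4035 CPM in cKO replicates 2 and 3. In Ctrl they summed to 4307, 2935 and 4405 CPM. The part of such genes in these means was not tested. Markers of the tissue were present: the 11 pan sensory neuron genes summed to 13540 to 14170 CPM in cKO and 13860 to 14300 CPM in Ctrl, and 10 glial genes to 2015 to 2066 CPM in cKO and 1909 to 2025 CPM in Ctrl. In bulk ganglia, fewer cells of a type and less RNA per cell cannot be told apart.

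The promoters of 4 members are printed as they stand at the listed starts. The RefSeq promoter table held 6 of the 9 members. Asic1 and P2rx4 are shown because their groups did not overlap and lay in opposite directions. Piezo1 and Stoml3 are shown because they are the most and the least CpG-rich of the members found in the promoter table. The contrast between Piezo1 and Stoml3 was thus fixed by the choice. Each sequence is the 250 bases before the transcript start that the promoter table lists, read 5′ to 3′ on the gene's strand from RefSeq (GRCm38.p6), with every CG pair in capitals. The Asic1 start is an internal one, inside the span of the gene given below, and that of P2rx4 lies just inside its gene.
Asic1, chr15:99691974-99692223, plus strand: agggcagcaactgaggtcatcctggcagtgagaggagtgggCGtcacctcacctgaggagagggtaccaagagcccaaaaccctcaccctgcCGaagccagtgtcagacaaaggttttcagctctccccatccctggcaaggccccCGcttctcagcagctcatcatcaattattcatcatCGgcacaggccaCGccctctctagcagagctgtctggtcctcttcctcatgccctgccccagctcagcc
P2rx4, chr5:122707294-122707543, plus strand: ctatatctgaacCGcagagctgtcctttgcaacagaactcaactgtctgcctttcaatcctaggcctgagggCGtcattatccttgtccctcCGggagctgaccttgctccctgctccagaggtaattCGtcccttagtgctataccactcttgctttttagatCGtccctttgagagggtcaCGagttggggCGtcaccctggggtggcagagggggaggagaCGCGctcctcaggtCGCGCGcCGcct
Piezo1, chr8:122551330-122551579, minus strand: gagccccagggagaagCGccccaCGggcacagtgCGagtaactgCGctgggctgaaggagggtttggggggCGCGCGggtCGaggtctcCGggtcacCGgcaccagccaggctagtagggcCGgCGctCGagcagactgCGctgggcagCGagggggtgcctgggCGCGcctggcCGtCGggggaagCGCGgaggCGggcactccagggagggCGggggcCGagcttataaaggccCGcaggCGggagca
Stoml3, chr3:53488457-53488706, plus strand: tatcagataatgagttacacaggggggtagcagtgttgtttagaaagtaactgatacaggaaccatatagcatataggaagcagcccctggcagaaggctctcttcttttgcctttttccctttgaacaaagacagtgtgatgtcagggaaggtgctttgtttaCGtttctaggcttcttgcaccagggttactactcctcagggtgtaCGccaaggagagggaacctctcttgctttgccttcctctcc

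Piezo1 has 26 CG pairs in this window, more than 90.4% of the 32851 RefSeq promoters of that length, and the P2rx4 window has 13. Asic1 has 5 and Stoml3 has 2, against a median of 6 over all promoters. The TATA box letters TATAAA, searched on both strands, occur in the Piezo1 window and in 12.4% of all promoters, and not in the other 3 windows. The E-box letters CANNTG, the motif of basic helix-loop-helix factors, occur at 2 places in the Asic1 window and at 1 in the P2rx4 window, against 66.2% of all promoters with at least 1. These matches are descriptions of the letters, not binding sites. In the RefSeq table Asic2 has 2 listed starts and the counts are per gene, so its isoforms were not told apart.

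Levels between genes are given in TPM, which is scaled per transcript length. P2rx3 led with a mean of 317 TPM over the 6 libraries (276 to 345 TPM), above 97.6% of genes in the table with any TPM. Asic1 followed with 43.2 ± 5.26 TPM (SD over 6 libraries) and Piezo2 with 28.5 ± 6.15 TPM. Their ranges overlapped, but Asic1 was above Piezo2 in 6 of 6 libraries.

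Lower down, Asic3 averaged 15.8 TPM, Asic2 13.2 TPM, P2rx4 11.6 TPM and Piezo1 9.85 TPM. The ranges of each neighbouring pair in this order overlapped, and Asic3 was above Asic2, and Asic2 above P2rx4, in 5 of 6 libraries. P2rx2 averaged 3.80 TPM and lay below Piezo1 in 6 of 6 libraries, with no overlap. Stoml3 averaged 0.075 TPM.

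**Figure D1:**
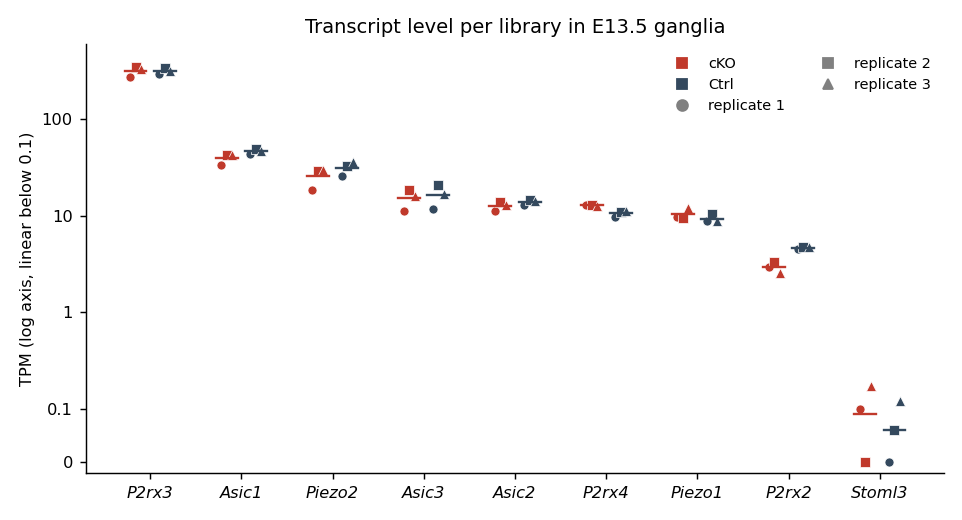
TPM (log axis, linear below 0.1) of the 9 genes in each library, cKO left of Ctrl, with lines at group means and marker shapes for the replicate number. P2rx3 stands at 276 to 345 TPM, the next genes between 8.72 and 49.3 TPM, P2rx2 between 2.55 and 4.74 TPM, and Stoml3 at 0 to 0.17 TPM.

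Stoml3 (gene identifier 229277) had 2, 0 and 3 estimated counts in the cKO libraries, against 0, 1 and 2 in the Ctrl libraries. All values were at or under 3 counts. Stoml3 did not pass the filter on low counts and was not tested, so no difference was detectable at this depth. The other 8 members passed the filter on low counts.

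Over these 8 genes, none was called by edgeR without a block, where 0.481% of the 14338 tested genes were called, and 4 had an unadjusted p under 0.05. DESeq2 and limma-voom also called 0 of the 8, where they called 183 and 53 of the 14338 tested genes. Each had 4 of the 8 at an unadjusted p under 0.05. The share of all tested genes under that unadjusted p was not computed for any of these fits. With the replicate number as a block, 3 of the 8 were called, all lower in cKO, where 5.33% of all tested genes were called in either direction 3.56% lower and 1.76% higher. Without the libraries numbered 1, which stood apart, the same 3 genes were called with the block, where 8.72% of all tested genes were called. Without the block and those libraries 2 of the 8 were called, Piezo2 and Asic1, against 5.09% of all tested genes. The median log2 fold change was -0.13 over the 8 genes and 0.004 over all tested genes. Groups did not overlap for 4 of the 8, against 16.6% of all tested genes. Log2 fold changes are cKO over Ctrl throughout.

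**Figure D2:**
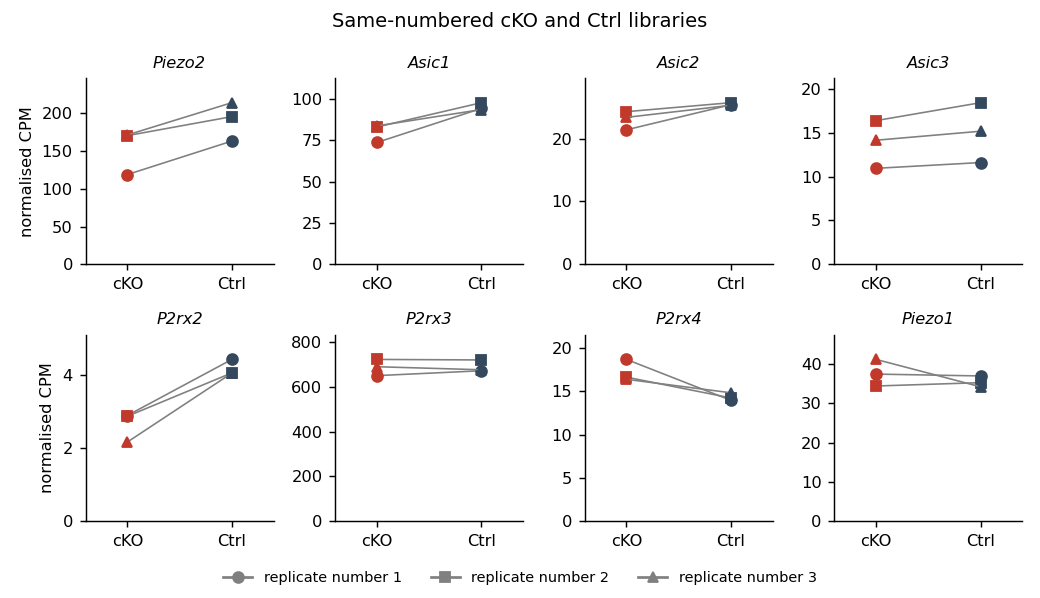
Normalised CPM of the 8 tested genes, cKO left and Ctrl right, with a line joining same-numbered libraries (vertical axes start at 0). For Piezo2, Asic1, Asic2, Asic3 and P2rx2 the cKO library lies below its Ctrl partner in 3 of 3 pairs, and for P2rx4 it lies above in 3 of 3.

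Piezo2 (gene identifier 667742, chromosome 18, 63010213 to 63387716, GRCm38), the touch transducer, had 119, 171 and 171 CPM in cKO replicates 1 to 3, against 163, 196 and 214 CPM in Ctrl replicates 1 to 3. The number 1 library was the lowest of each group, and the groups overlapped, because Ctrl replicate 1 lay below the higher cKO libraries. Within each pair, however, cKO was lower, by log2 differences of -0.46, -0.20 and -0.32. With the block, edgeR gave -0.32 on the log2 scale (SE 0.05, adjusted p 0.00272). Without it the value was -0.31 (SE 0.14, adjusted p 0.447 by edgeR).

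The Piezo2 call with the block held without the libraries numbered 1 (log2 fold change -0.26, edgeR adjusted p 0.00013), numbered 2 (-0.39, 0.00536) or numbered 3 (-0.33, 0.00141). Without the libraries numbered 1 it was also called with no block (edgeR adjusted p 0.0045). Fits with a pair left out rest on fewer libraries and lean more on variance estimates shared over genes. The blocked fit without the libraries numbered 1 called 1252 genes, against 764 with all libraries. Its smaller p is therefore no stronger evidence for Piezo2, and the same limit holds for Asic1 and P2rx2 below. Without the block, leaving out cKO replicate 1 alone put the log2 fold change nearest to 0, at -0.16 (edgeR adjusted p 0.562). Set against the 11 pan sensory neuron genes, Piezo2 TPM came to 0.168%, 0.236% and 0.239% of their summed TPM in cKO, against 0.219%, 0.272% and 0.303% in Ctrl. This share overlapped between groups (exact permutation p 0.3, two-sided, where 3 against 3 libraries cannot go below 0.1), and it was lower in cKO in 3 of 3 pairs. Here and for the ratios below, the permutation test ignored the pairs. The sum of the 11 genes is carried mostly by Tubb3, Stmn2, Prph, Nefl and Nefm, with means of 1540 to 3266 TPM. Stmn2 was itself lower in cKO with the block.

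Piezo1 (gene identifier 234839, chromosome 8, 122481698 to 122551329, GRCm38) had 37.4, 34.4 and 41.2 CPM in cKO, against 37.0, 35.2 and 34.2 CPM in Ctrl. The groups overlapped and the pairs differed in direction, with log2 differences of 0.02, -0.04 and 0.27. Its log2 fold change was 0.09, with a 95% confidence interval of -0.09 to 0.27 (edgeR adjusted p 0.795; 0.561 with the block). Endothelial marker genes, from cells in which Piezo1 is well known, summed to 413 to 464 CPM in cKO and 438 to 446 CPM in Ctrl, and 10 erythroid genes to 10170, 2460 and 4035 CPM in cKO and 4307, 2935 and 4405 CPM in Ctrl. The part of either cell type in the Piezo1 values was not tested.

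The Piezo1 counts need care. They are fractional in every library, while those of the other members are whole. In the GENCODE gene annotation, over all transcripts, its exons share 2441 bases with exons of Ctu2, a tRNA-modifying enzyme gene on the opposite strand. Whether the annotation used for counting has the same overlap was not checked. The sources used here do not say whether the kit was stranded, so reads of the 2 genes in this stretch may not be told apart. With the block, Ctu2 stood at -0.05 on the log2 scale (adjusted p 0.771 by edgeR). As a share of the summed TPM of both Piezo genes, Piezo2 held 65.2%, 75.4% and 71.2% in cKO, against 74.2%, 76.1% and 80.4% in Ctrl. The groups overlapped (exact permutation p 0.2, two-sided), and the share was lower in cKO in 3 of 3 pairs.

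Asic1 (gene identifier 11419, chromosome 15, 99670197 to 99701130, GRCm38) encodes the acid-sensing subunit most widely used in the nervous system. It had 73.7, 83.0 and 83.7 CPM in cKO, against 94.3, 97.7 and 93.6 CPM in Ctrl. Every cKO library lay below every Ctrl library. With the block, edgeR gave -0.25 on the log2 scale (SE 0.05, adjusted p 0.014), and without it -0.25 (SE 0.07, adjusted p 0.182).

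The blocked call of Asic1 held without the libraries numbered 1 (log2 fold change -0.20, edgeR adjusted p 0.0226) or 3 (-0.30, 0.00286), and was lost without those numbered 2 (-0.26, 0.124). Against the summed TPM of the 11 pan sensory neuron genes, Asic1 came to 0.311%, 0.345% and 0.348% in cKO and 0.377%, 0.407% and 0.394% in Ctrl, with no overlap (exact permutation p 0.1, two-sided, the smallest possible).

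Asic2 (gene identifier 11418, chromosome 11, 80880163 to 81968396, GRCm38), a subunit that tunes the acid response of mixed channels, had 21.4, 24.3 and 23.4 CPM in cKO, against 25.4, 25.7 and 25.3 CPM in Ctrl. The groups did not overlap, yet the difference did not pass the test, at -0.15 on the log2 scale with the block (SE 0.07, adjusted p 0.278 by edgeR) and a 95% confidence interval of -0.30 to 0.00. Without the block the edgeR adjusted p was 0.577.

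Asic3 (gene identifier 171209, chromosome 5, 24413451 to 24417840, GRCm38) is the subunit best known from acid-evoked pain in sensory neurons. It had 10.96, 16.4 and 14.2 CPM in cKO, against 11.6, 18.5 and 15.2 CPM in Ctrl. The replicate number separated these values more than the genotype did: the number 1 libraries were lowest and the number 2 libraries highest in both groups. The blocked log2 fold change was -0.12, with a 95% confidence interval of -0.31 to 0.07 (edgeR adjusted p 0.495). Without the block it was also -0.12 (edgeR adjusted p 0.868). As a proportion of the 3 ASIC genes, Asic1 made up 60.4%, 56.9% and 59.6% of their summed TPM in cKO and 64.0%, 58.3% and 60.1% in Ctrl, with overlap (exact permutation p 0.5, two-sided), and lower in cKO in 3 of 3 pairs.

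**Figure D3:**
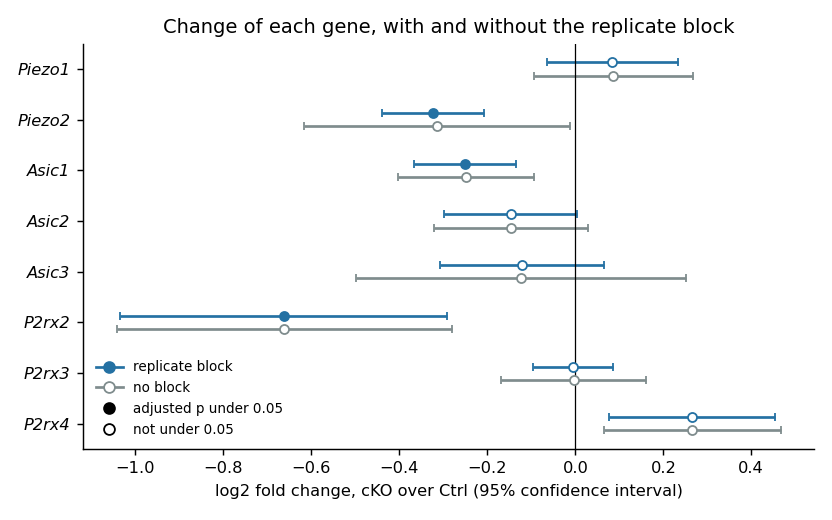
Log2 fold change of cKO over Ctrl for the 8 tested genes, with 95% confidence intervals, from fits with and without the replicate block; filled points passed an adjusted p of 0.05. Piezo2 (-0.32), Asic1 (-0.25) and P2rx2 (-0.66) passed with the block, and P2rx3 lies at -0.005 with the block, where its interval is the narrowest of the 8.

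P2rx3 (gene identifier 228139, chromosome 2, 84996549 to 85037108, GRCm38), the main ATP receptor subunit of pain-sensing neurons, had 651, 724 and 691 CPM in cKO, against 673, 722 and 678 CPM in Ctrl. The groups overlapped. The blocked log2 fold change was -0.005, with a 95% confidence interval of -0.10 to 0.09 (edgeR adjusted p 0.967), and without the block the interval was -0.17 to 0.16. A neighbour on the opposite strand, the chromatin gene Ssrp1, shares 51 exonic bases with P2rx3 in the GENCODE annotation. Ssrp1 stood at 135 ± 8.28 TPM in cKO and 125 ± 4.18 TPM in Ctrl (SD, n = 3).

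P2rx2 (gene identifier 231602, chromosome 5, 110339812 to 110343320, GRCm38), whose subunit joins P2rx3 in mixed channels and slows their desensitization, had 2.88, 2.86 and 2.16 CPM in cKO, against 4.42, 4.05 and 4.04 CPM in Ctrl. These values rest on 50, 49 and 37 estimated counts in cKO and 76, 68 and 66 in Ctrl. Every cKO library lay below every Ctrl library. The blocked log2 fold change was -0.66 (SE 0.18, 95% confidence interval -1.04 to -0.29, edgeR adjusted p 0.0374), the largest fall in size among the 8 genes. Without the block the edgeR adjusted p was 0.144.

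The blocked call of P2rx2 held without the libraries numbered 1 (log2 fold change -0.69, edgeR adjusted p 0.0305). It was lost without those numbered 2 (-0.75, 0.117) or 3 (-0.56, 0.151). Set against P2rx3 in the same library, P2rx2 TPM came to 1.07%, 0.966% and 0.771% of P2rx3 TPM in cKO, and to 1.54%, 1.39% and 1.48% in Ctrl. The means were 0.937 ± 0.153% in cKO and 1.47 ± 0.072% in Ctrl (SD, n = 3), with no overlap and an exact permutation p of 0.1 (two-sided, the smallest possible). Of the 10 such ratios computed between members or marker sums, 4 reached this smallest p, which became 0.25 after Benjamini-Hochberg adjustment over the 10.

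P2rx4 (gene identifier 18438, chromosome 5, 122707518 to 122729739, GRCm38), the P2X subunit shared with macrophages, had 18.7, 16.6 and 16.4 CPM in cKO, against 13.9, 14.2 and 14.8 CPM in Ctrl. Every cKO library lay above every Ctrl library. The log2 fold change was 0.27, with a 95% confidence interval of 0.06 to 0.47 (edgeR adjusted p 0.292), and 0.27 with the block (95% confidence interval 0.08 to 0.45, edgeR adjusted p 0.101). It did not pass in either fit. Relative to P2rx3 TPM, P2rx4 TPM came to 4.63%, 3.72% and 3.81% in cKO and 3.30%, 3.17% and 3.51% in Ctrl, with no overlap (exact permutation p 0.1, two-sided, the smallest possible).

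The 10 macrophage marker genes had positive log2 fold changes throughout, with a median of 0.43. Their summed level was 184, 127 and 126 CPM in cKO, against 108, 107 and 125 CPM in Ctrl, and was highest in cKO replicate 1, as P2rx4 was. Over all 10, P2rx4 TPM came to 5.82%, 8.07% and 7.998% of the macrophage sum in cKO and 7.43%, 8.60% and 7.58% in Ctrl, with overlap (exact permutation p 0.7, two-sided). Their part in the P2rx4 values was not tested. Without both libraries numbered 1, the log2 fold change of P2rx4 was 0.19 (edgeR adjusted p 0.394). Of the 10, C1qb, a complement gene of macrophages, was the one that rose with the block (log2 fold change 0.43, edgeR adjusted p 0.0133). Among all tested genes 1.76% were called higher with the block.

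**Figure D4:**
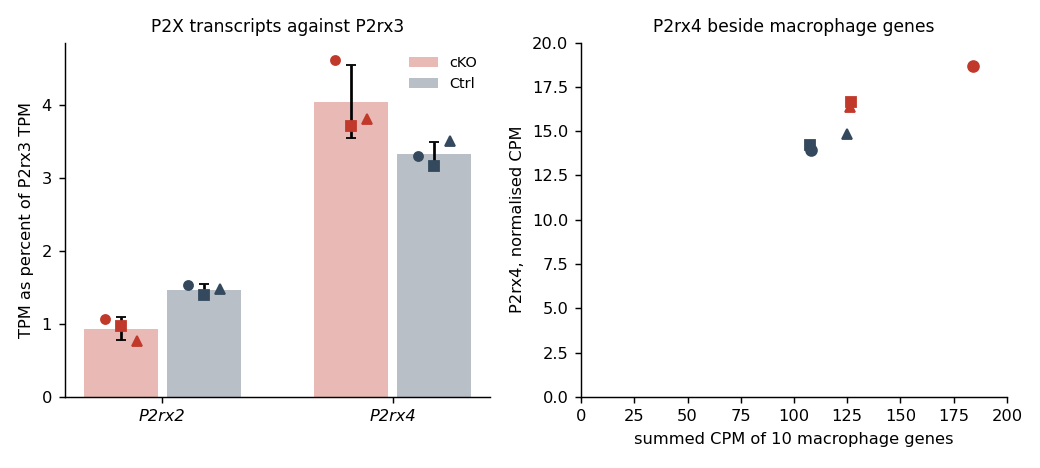
Left, P2rx2 and P2rx4 TPM as percent of P2rx3 TPM in the same library (bars are means, error bars SD, n = 3, cKO left of Ctrl). Right, P2rx4 CPM against the summed CPM of 10 macrophage genes; cKO replicate 1, at 18.7 and 184 CPM, is highest on both axes.

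Marker lists of the neurons that use these channels were read beside them. Of 13 touch and proprioceptor genes, all tested, 6 were lower and 1 was higher with the block, against 3.56% and 1.76% of all tested genes, and 1 was called without it, lower, against 0.481%; their median log2 fold change was -0.20. They summed to 767, 872 and 835 CPM in cKO, against 950, 976 and 966 CPM in Ctrl, with no overlap. Mafa, a transcription factor gene of early touch neurons, had 14.7 ± 0.62 TPM in cKO and 20.8 ± 1.28 TPM in Ctrl (SD, n = 3), or -0.52 on the log2 scale with the block (adjusted p 0.000549 by edgeR). Ret, the GDNF family coreceptor, fell with the block (-0.36, 0.000665), as did Ntrk2, the BDNF receptor (-0.26, 0.00778), while Calb1, a calcium-binding protein gene, rose (0.51, 0.0023). Part of these values was known from an earlier analysis of the same libraries and lends the channels no independent support.

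The 11 nociceptor genes, of which 10 were tested, had a median log2 fold change of 0.09. With the block 1 was higher and 1 lower, against 1.76% and 3.56% of all tested genes. These were Trpv1, the heat and capsaicin channel (log2 fold change 0.40, edgeR adjusted p 0.00132), and Scn9a, a sodium channel of pain-sensing neurons (-0.18, 0.0237). Their summed level was 2779 to 3273 CPM in cKO and 2909 to 3264 CPM in Ctrl. Of the 11 pan sensory neuron genes, 3 were lower with the block, against 3.56% of all tested genes, and none was higher. The 3 were the transcription factor gene Isl1 (-0.21, edgeR adjusted p 0.00833), the tubulin-binding protein gene Stmn2 (-0.20, 0.00858) and the actin-binding protein gene Avil (-0.22, 0.0123). Of 10 glial genes, 6 were higher with the block, against 1.76% of all tested genes, and none lower, with a median log2 fold change of 0.19; the myelin gene Mbp was among those higher (0.31, edgeR adjusted p 0.00329). No endothelial, erythroid, skeletal muscle or mesenchyme marker was called by edgeR with or without the block, where 0, 0, 1 and 1 had an unadjusted p under 0.05 without it, nor by DESeq2 or limma-voom. The blocked fit without the libraries numbered 1 did call 5 of them: the erythroid genes Hba-a1 (log2 fold change -0.21, edgeR adjusted p 0.000403), Hba-a2 (-0.21, 0.000805) and Slc4a1 (-0.39, 0.0154), the muscle gene Ttn (-1.46, 0.00784) and the collagen gene Col1a1 (0.15, 0.0339). Of 3 tested spinal cord markers, Pax6, with 3 to 18 counts per library, was called higher with and without the block. Of all tested genes, 1.76% were called higher with the block, and 0.481% were called in either direction without it. The other tested markers, Hes5 and Nkx6-1, stood at -0.08 and -0.15 on the log2 scale without the block and were not called. Among the untested ones, Lhx1 ranged most widely, from 0 to 26 counts, at 0.267 ± 0.393 TPM in cKO and 0.03 ± 0.03 TPM in Ctrl (SD, n = 3). The source of these transcripts was not tested.

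Other genes of the same pathways were mostly not called, where 5.33% of all tested genes were called with the block and 0.481% without it. Among 12 Piezo and stomatin partner genes, 11 were tested, with a median log2 fold change of 0.02. With the block 1 was higher and 1 lower: Pcdh15, a protocadherin of the inner ear hair cell tip link (log2 fold change 0.35, edgeR adjusted p 0.00769), and Cdh1, E-cadherin (-0.39, 0.0352). Of 8 other ASIC and ENaC genes and their regulators, 5 were tested and none was called by edgeR with or without the block, by DESeq2 or by limma-voom, with 0 at an unadjusted p under 0.05 in both edgeR fits. The most abundant was Pick1, a scaffold that binds ASIC subunits, at 52.8 ± 6.80 TPM in cKO and 53.5 ± 4.99 TPM in Ctrl (SD, n = 3).

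Of 20 further purinergic genes, 17 were tested, with a median log2 fold change of -0.04. Entpd2 was the one called, with the block, where 5.33% of all tested genes were called. Entpd2, an ectoenzyme that breaks down ATP, had 57.6, 64.8 and 49.3 CPM in cKO, against 42.1, 50.2 and 46.1 CPM in Ctrl. The groups overlapped, and its blocked log2 fold change was 0.31 (SE 0.07, edgeR adjusted p 0.0159). Of 14 other mechanosensitive channel genes, 11 were tested and none was called by edgeR with or without the block, by DESeq2 or by limma-voom; 1 had an unadjusted edgeR p under 0.05 without the block and 2 with it. The blocked fit without the libraries numbered 1 called 1 of them, the stretch-sensitive potassium channel gene Kcnk2 (log2 fold change -0.35, edgeR adjusted p 0.0271). Tmem63b, a stretch-activated channel gene and the most abundant of them, stood at 77.0 ± 12.6 TPM in cKO and 79.7 ± 5.76 TPM in Ctrl (SD, n = 3).

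**Figure D5:**
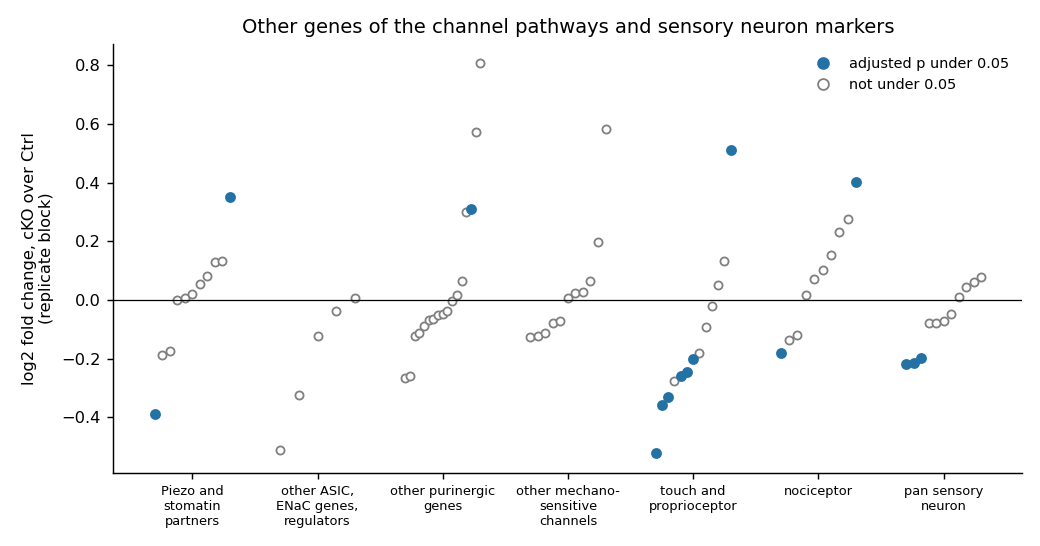
Log2 fold change of cKO over Ctrl with the replicate block for every tested gene of 7 lists, ordered by size within each list; filled points passed an adjusted p of 0.05. Among the 4 channel pathway lists the filled points are Cdh1 (-0.39), Pcdh15 (0.35) and Entpd2 (0.31), and 7 of the 13 touch and proprioceptor genes are filled.

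Patterns over the 6 libraries were compared by the root mean square difference of log2 CPM after centring each gene on its own mean, over 11884 genes of at least 5 CPM. The genes nearest to Piezo2 were Unc80, a subunit of the sodium leak channel complex (0.0522), Slco5a1, a solute carrier gene (0.0573), and Scn3a, a sodium channel of embryonic neurons (0.0644). Slco5a1 and Scn3a were lower in cKO with the block (log2 fold changes -0.34 and -0.27, edgeR adjusted p 0.0023 and 0.00489), and Unc80 did not pass (-0.26, 0.204). The genes nearest to P2rx3 were Ndrg4, Arv1 and Ubap2l, at 0.0105 to 0.0158, all of them near 0 in log2 fold change. Over 6 libraries that share the genotype and pair structure, such closeness is a description only. Genes picked for a pattern like that of Piezo2 or P2rx3 share its direction by that choice. Their log2 fold changes and adjusted p values therefore lend it no support.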

How the data were processed

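The authors deposited, for each of 6 libraries, estimated counts per gene, TPM values and FPKM values, with group means that were not used. FPKM values, as the authors deposited them, entered no result. RNA was isolated by Trizol and made into libraries by an mRNA kit, per the labels' protocols. The submitters' processing notes name RSEM 1.3.1, HISAT2 2.2.1 and Bowtie2 2.4.5, and the build GRCm38 (mm10), without their roles.

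Estimated counts were rounded to whole numbers and filtered with filterByExpr. Counts were tested with edgeR 4.0.16 in R 4.3.3 (robust quasi-likelihood F test, TMM scaling), two-sided, Benjamini-Hochberg adjusted over all tested genes at 0.05. SEs come from the fold change and its F statistic. Samples of the same number have codes that begin alike, the controls are littermates, and deviations from group means correlated at 0.35, 0.264 and 0.195 for same-numbered libraries over 13749 genes. For cKO and Ctrl libraries of different numbers these correlations ran from -0.303 to 0.114. Each number was therefore treated as a pair in the blocked fits. The fit without the block was set as the main test and the block as an alternative. Values with the replicate block are printed also where they change no call. The permutation tests of ratios were unpaired. Alternatives used DESeq2 1.42.0, limma 3.58.1 (voom, and log2 of TPM plus 1 or 0.1), other scalings and filters, and fewer libraries. The scripts were tested on simulated data.

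The members, lists and settings were chosen with earlier results of these data known. Genes outside the 9 members were named by rule: list members called in either fit, at most 4 a list, or else the most abundant, and the 3 genes nearest in pattern to Piezo2 and P2rx3. Ctu2 and Ssrp1 are named for their overlap. Kcnk2 and the erythroid, muscle and collagen genes called without the libraries numbered 1 were named after their values were seen. So were the spinal cord genes Hes5, Nkx6-1 and Lhx1. Python 3.11.15 with matplotlib 3.10.9 drew the figures.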

Additional observations from a re-analysis of the deposited data

How the results depend on the processing

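Over all genes 69 were called, 53 of them lower in cKO. The count was 44 with library totals (28 lower), 183 with DESeq2, 15 with limma-trend on log2(TPM + 1) and also on log2(TPM + 0.1), and 128 with no filter. It was 764 with the replicate block (511 lower), 799 with the block and library totals (403 lower), and 1252, 260 and 836 with the block without the libraries numbered 1, 2 or 3. Without both libraries numbered 1 it was 731. Leaving out single libraries gave 18 to 104. The 3 blocked calls of Piezo2, Asic1 and P2rx2 also held with library totals. Without the block, none of the 8 members passed when any single library was left out. Members near 0 changed sign, with no edgeR adjusted p under 0.05: P2rx3 stood at 0.022 with library totals, 0.022 with the block and library totals, 0.017 with and without the block when the libraries numbered 1 were left out, 0.035 without cKO replicate 1 and 0.026 without Ctrl replicate 2. Asic3 stood at 0.020 without cKO replicate 1 and 0.045 without Ctrl replicate 2, and Piezo1 at -0.00798 with the block without the libraries numbered 3. Over single libraries left out, P2rx3 ranged from -0.042 to 0.035 and Asic3 from -0.28 to 0.045. The cause was not tested. Counting limits P2rx2 (37 to 76 counts) and Stoml3 (0 to 3 counts).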
